A study of Mus musculus with 4 samples.

Results

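The genes described here are 10 that act on or form the microtubules of young neurons, out of 52636 in the deposited table, each taken by its symbol as the row with the most reads. They are Dcx, Dclk1 and Dclk2 of the doublecortin family, the LIS1 gene Pafah1b1, the tubulin genes Tubb3, Tubb2a, Tubb2b and Tuba1a, and the stathmins Stmn1 and Stmn2. Each symbol stood on 1 row, and all 10 had enough counts to be among the 14673 genes tested. The libraries came from sorted cells of the dentate gyrus (DG) of C57BL/6 mice aged 6 to 7 weeks, 2 from Fmr1-/y mice (labelled Fmr1-KO), which lack a working Fmr1 gene, and 2 from wild type (WT) littermates. Dcx-DsRed is a red fluorescent reporter of doublecortin expression, which the protocol writes beside the Fmr1-/y genotype and the series design gives for the sorted cells of both genotypes. Neither the Fmr1 allele nor the reporter's construct is named. Whether replicates were separate animals or pools is not stated in the labels, so p-values measure only the spread between the deposited libraries, and that spread may be technical. The extraction protocol covers sorts of 10000 living cells, with or without selection on the reporter, so the description as Dcx-DsRed cells rests on the series design.

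Microtubules are hollow polymers of alpha- and beta-tubulin dimers along which the nucleus, vesicles and organelles of a migrating neuroblast are moved, and they give its growing neurites their shape. Doublecortin and its kinase relatives bind the microtubule wall and steady it, LIS1 works with the motor dynein to pull the nucleus forward, and stathmins bind free tubulin dimers and favour disassembly. In the adult dentate gyrus Dcx and Tubb3 are widely used to mark newborn granule neurons. In humans, mutations in DCX, PAFAH1B1, TUBA1A and TUBB2B disturb the migration of cortical neurons.

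The libraries held 5662429 and 6702841 counts (Fmr1-KO) and 5478224 and 7213759 counts (WT). Levels below are CPM, counts scaled to a common library total, on libraries adjusted by the TMM method of edgeR. Fmr1, the targeted gene, lay at 43.4 and 29.7 CPM in Fmr1-KO libraries, against 73.1 and 91.6 CPM in WT libraries. Both Fmr1-KO libraries were lower, with a log2 fold change of -1.17 and an adjusted p of 0.9999 (edgeR's quasi-likelihood test, Benjamini-Hochberg over all genes tested; unadjusted p 0.0134). The libraries stood apart by replicate number, although the labels do not call that number a batch. The share of counts from mitochondrial genome genes was 1.887% and 5.988% in Fmr1-KO replicates 1 and 2. In WT replicates 1 and 2 that share was 1.779% and 4.492%. The summed level of 17 markers of neuroblasts and immature granule neurons was 4994 CPM in replicate 1 and 2954 CPM in replicate 2 of Fmr1-KO, and 4577 and 2818 CPM in replicates 1 and 2 of WT. The summed level of 12 markers of the oligodendrocyte lineage was 4248 CPM in replicate 1 and 12690 CPM in replicate 2 of Fmr1-KO, and 2168 and 13010 CPM in replicates 1 and 2 of WT. None of the markers in either list was at 0 in all libraries, so transcripts of glia were present in cells described as Dcx-DsRed cells. In bulk samples, fewer cells of a type and less RNA per cell cannot be told apart.

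**Figure D1:**
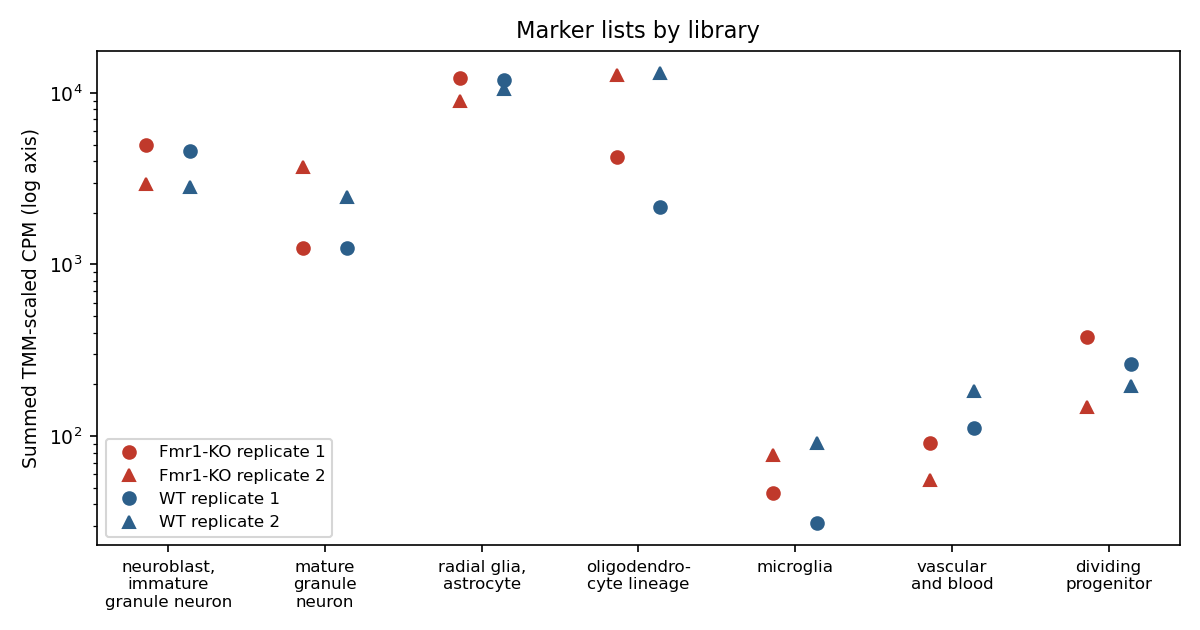
Summed TMM-scaled CPM (log axis) of 7 lists of cell type markers in each library, with Fmr1-KO in red left of WT in blue, circles for replicate 1 and triangles for replicate 2. Neuroblast markers were higher in the replicate 1 libraries of both genotypes and oligodendrocyte lineage markers in the replicate 2 libraries of both.

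Some of these genes have near-identical relatives, which limits how well reads of 100 bases can be assigned to them. Tubb2a and Tubb2b are neighbours on chromosome 13, with their lower coordinates 52.5 kb apart. Their coding sequences were identical at 1288 of 1335 bases (96.5%), whereas Tubb2b and Tubb3 shared 83.6% of 1350 aligned bases. The ends of the coding sequences, which encode the acidic tail in which beta-tubulins differ most, are shown because they separate Tubb3 from Tubb2b and barely separate Tubb2a from Tubb2b. They are the last 60 coding bases before the stop codon, read from GENCODE M21 transcripts 5′ to 3′ on the coding strand. Capitals mark bases that differ from Tubb2b for Tubb2a and Tubb3, and from Tubb2a for Tubb2b, when the ends are laid side by side without gaps.
Tubb2a: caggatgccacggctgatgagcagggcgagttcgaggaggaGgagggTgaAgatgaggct
Tubb2b: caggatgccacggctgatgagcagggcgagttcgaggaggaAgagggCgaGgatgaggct
Tubb3: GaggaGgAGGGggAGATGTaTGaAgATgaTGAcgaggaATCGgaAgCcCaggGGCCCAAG
Over that stretch Tubb2a and Tubb2b differed at 3 bases and Tubb3 and Tubb2b at 35. The coding sequence of Tubb3 has 1350 bases and that of Tubb2b has 1335. Laid without gaps from the stop codon, their ends can be out of register, so 35 is not a count of substitutions. With gaps allowed over the whole coding sequence, 222 of 1350 aligned bases differed. Tuba1a and Tuba1b, both on chromosome 15, were identical at 1330 of 1353 coding bases (98.3%).

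Windows of 100 bases along the chosen transcript of each gene were looked up in all other GENCODE M21 transcripts. For Tuba1a 65.1% of the windows also occurred in a transcript of another gene, for Tubb2a 36.9%, for Tubb2b 27.7% and for Stmn1 26.1%, the last all in the locus Gm11223. No window of Dcx, Dclk1, Dclk2, Pafah1b1, Tubb3 or Stmn2 did. Levels of Tuba1a, Tubb2a, Tubb2b and Stmn1 are therefore uncertain where the counting could split or drop shared reads. The windows stand for single reads, whereas the libraries held read pairs. The share of pairs that cannot be placed may therefore be lower, and it was not computed.

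Promoter windows, 250 bases before to 50 after the start of transcription, were available for 7 of the 10 genes. There was none for Tubb2b, Stmn1 and Stmn2. Windows of Dcx, Tubb3 and Pafah1b1 are shown because, of those 7 genes, these differed most between the libraries of a genotype, Dcx and Tubb3 in one direction and Pafah1b1 in the other. Of 2 overlapping Dcx windows the upstream one is given. The sequences are from RefSeq on GRCm38.p6, in the direction of transcription, and capitals mark TATAAA, which the Dcx window held once.
Dcx, chrX:143933170-143933469, minus strand: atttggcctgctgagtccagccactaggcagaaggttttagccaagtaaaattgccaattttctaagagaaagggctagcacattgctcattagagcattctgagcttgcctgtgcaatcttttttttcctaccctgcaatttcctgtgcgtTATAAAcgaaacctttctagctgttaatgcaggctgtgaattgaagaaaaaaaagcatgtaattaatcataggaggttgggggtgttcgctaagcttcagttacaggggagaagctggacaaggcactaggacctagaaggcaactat
Tubb3, chr8:123411303-123411602, plus strand: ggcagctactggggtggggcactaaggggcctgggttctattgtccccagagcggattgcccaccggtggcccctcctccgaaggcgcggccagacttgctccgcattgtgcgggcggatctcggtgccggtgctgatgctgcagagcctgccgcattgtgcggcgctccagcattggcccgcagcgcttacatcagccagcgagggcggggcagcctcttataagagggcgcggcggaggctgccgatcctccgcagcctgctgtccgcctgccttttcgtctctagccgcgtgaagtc
Pafah1b1, chr11:74723809-74724108, minus strand: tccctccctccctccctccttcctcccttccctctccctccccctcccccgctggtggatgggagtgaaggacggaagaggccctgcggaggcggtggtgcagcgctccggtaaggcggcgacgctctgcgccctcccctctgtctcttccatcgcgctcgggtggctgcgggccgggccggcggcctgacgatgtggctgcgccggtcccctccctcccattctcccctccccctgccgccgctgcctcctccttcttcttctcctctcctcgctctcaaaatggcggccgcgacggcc
Besides TATAAA, the form of the TATA box, 3 motifs were searched, all on both strands: CAGATG and CAGCTG, forms of the E-box bound by neurogenic basic helix-loop-helix factors, and AACAAT, a core of Sox factor sites. Of 32851 promoter windows of this length, 13.6% held TATAAA, 17.2% CAGATG, 16.3% CAGCTG, which reads the same on both strands, and 10.7% AACAAT. Besides Dcx, 1 of the 7 genes, Tubb2a, held TATAAA, and no window of the 7 held the other motifs. A motif was counted wherever in the window it lay, so TATAAA here does not establish a TATA box. The Dcx window had 3 CpG dinucleotides, that of Tubb3 had 26 and that of Pafah1b1 had 27, against a median of 7 over all windows.

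The main comparison asks whether loss of Fmr1 goes with a different level of these transcripts, and it found no difference that passed the test. With a threshold of 0.05 on the adjusted p, edgeR called none of the 10 genes higher and none lower in Fmr1-KO, where the background was 0.0% of genes higher and 0.0% lower. Before adjustment 69 of all genes tested passed 0.05 as higher and 85 as lower. That is fewer than a threshold of 0.05 would pass on average if no gene differed. The test on genotype alone was therefore strict, and a lack of calls carries little weight. DESeq2 and limma voom also called 0 genes, and before adjustment 99 passed as higher and 149 as lower with DESeq2, and 42 and 45 with limma voom. With all libraries and genotype as the sole term, none of the 10 genes had an unadjusted p under 0.05 by these tools, and the smallest were 0.394 (edgeR), 0.352 (DESeq2) and 0.385 (limma voom), all for Dcx. The unadjusted edgeR p of Dcx was 0.0461 without Fmr1-KO replicate 2, with an adjusted p of 0.9975. Of the 10 estimates 6 lay above 0 and 4 below, from -0.27 for Tubb3 to 0.43 for Dcx on the log2 scale, and each was smaller than its standard error. Their median was 0.10, against 0.02 over all genes tested, and it was -0.072 without Fmr1-KO replicate 1, -0.070 without WT replicate 2, 0.20 without Fmr1-KO replicate 2 and 0.32 without WT replicate 1. Both Fmr1-KO libraries lay above both WT libraries for 0 of the 10 genes, against 11.8% of all genes, and below them for 1, Dclk1, against 13.7%. Among the 2785 genes with a mean at or above the lowest of the 10, these shares were 11.4% above and 7.18% below. Leaving out 1 library turned the sign of 13 of 40 estimates, at least once for each of the 10 genes except Dclk1.

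**Figure D2:**
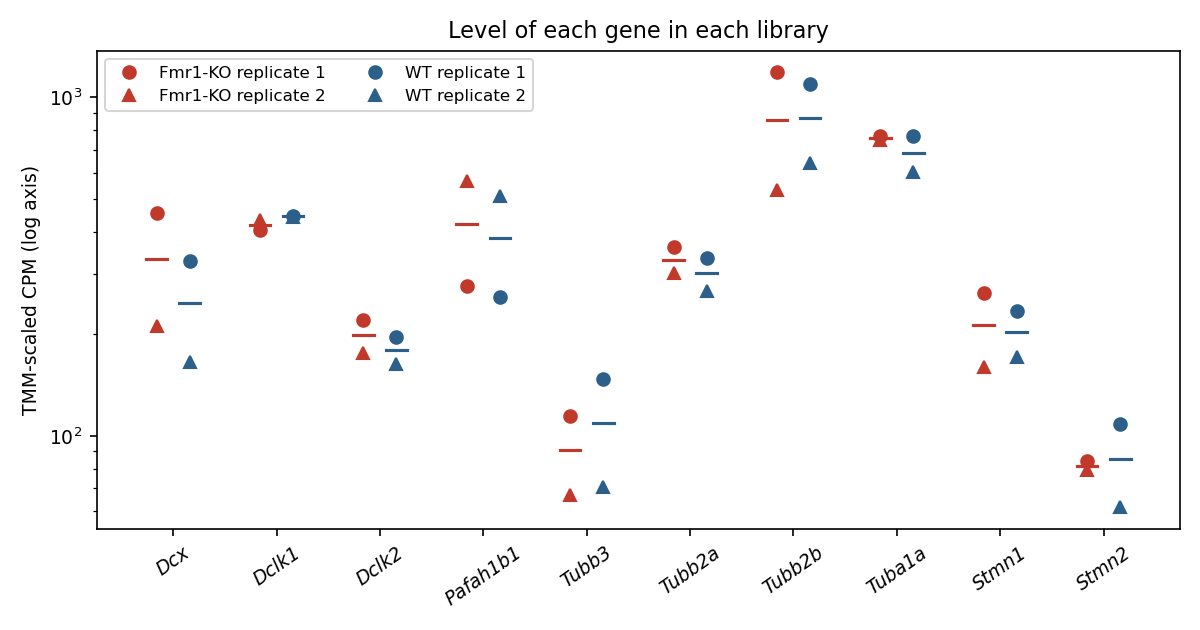
TMM-scaled CPM (log axis) of the 10 genes in each library, with Fmr1-KO in red left of WT in blue, circles for replicate 1, triangles for replicate 2 and bars for the mean of 2 libraries. The libraries of the 2 genotypes overlap for every gene except Dclk1. In both genotypes 8 of the 10 genes, Dcx, Tubb2b, Tubb3 and Pafah1b1 among them, differ more between replicates than between genotypes.

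Dcx (ENSMUSG00000031285.14, chromosome X, 143855842 to 143933311), the gene that the Dcx-DsRed reporter is named for, had 456.2 and 211.0 CPM in Fmr1-KO libraries, against 329.7 and 165.7 CPM in WT libraries. Replicate 1 was the higher library of each genotype, and the genotypes overlapped because Fmr1-KO replicate 2 lay below WT replicate 1. The means were 333.6 ± 173.4 and 247.7 ± 116.0 CPM (SD, n = 2 each) in Fmr1-KO and WT, a log2 fold change of 0.43 with a 95% interval of -0.69 to 1.55 (edgeR). That interval runs from 0.620-fold to 2.93-fold. The estimate was -0.23 without Fmr1-KO replicate 1 and 1.0 without WT replicate 1. Summed markers of neuroblasts, of radial glia and astrocytes, and of dividing progenitors moved with the same libraries. Their part in the result was not tested.

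Dclk1 (ENSMUSG00000027797.15, chromosome 3), a kinase that carries doublecortin domains, was the steadiest of the 10. It had 404.6 and 433.2 CPM in Fmr1-KO libraries, against 446.9 and 443.8 CPM in WT libraries. All Fmr1-KO values lay below all WT values, but by less than the standard error, with a log2 fold change of -0.09 and a 95% interval of -0.69 to 0.51 (edgeR). Dclk2 (ENSMUSG00000028078.14, chromosome 3), the close relative, had 220.7 and 175.5 CPM in Fmr1-KO libraries, against 195.8 and 162.7 CPM in WT libraries. Its genotypes overlapped, with a log2 fold change of 0.14 and an interval of -0.53 to 0.82 (edgeR). Per kilobase of the deposited gene length, the level of Dcx was 1.36 and 0.589 times that of Dclk1 in Fmr1-KO replicates 1 and 2, and 0.892 and 0.452 times in WT replicates 1 and 2. Per kilobase of the transcripts used above the ratio was 0.975 and 0.421 in Fmr1-KO replicates 1 and 2, and 0.638 and 0.323 in WT replicates 1 and 2, so whether Dcx exceeded Dclk1 in Fmr1-KO replicate 1 depends on the length used.

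Pafah1b1 (ENSMUSG00000020745.15, chromosome 11), which encodes LIS1, was the member whose libraries ran opposite to those of Dcx. It had 278.1 and 567.6 CPM in Fmr1-KO libraries, against 256.7 and 511.3 CPM in WT libraries. In each genotype replicate 2 was the higher library, and the genotypes overlapped. The log2 fold change was 0.14 with an interval of -0.94 to 1.22 (edgeR), and it was 0.71 without WT replicate 2 and -0.48 without Fmr1-KO replicate 2. Summed markers of mature granule neurons were also higher in replicate 2. They stood at 1252 and 3686 CPM in Fmr1-KO replicates 1 and 2, and at 1255 and 2480 CPM in WT replicates 1 and 2. Most of each sum was Camk2a, with 819.4 and 2954 CPM in Fmr1-KO libraries and 774.3 and 1777 CPM in WT libraries. Summed markers of the oligodendrocyte lineage were higher in replicate 2 as well. They stood at 4248 and 12690 CPM in Fmr1-KO replicates 1 and 2, and at 2168 and 13010 CPM in WT replicates 1 and 2. So were those of microglia, with 46.6 and 77.1 CPM in Fmr1-KO replicates 1 and 2, and 31.2 and 91.4 CPM in WT. The part of all these markers in the result was not tested.

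Among the beta-tubulins, Tubb2b (ENSMUSG00000045136.6, chromosome 13), abundant in young neurons, had 1185 and 533.1 CPM in Fmr1-KO libraries, against 1098 and 641.1 CPM in WT libraries. Both Fmr1-KO values lay outside the WT range, 1 above and 1 below it, and the log2 fold change was -0.02 with an interval of -1.07 to 1.04 (edgeR). Without Fmr1-KO replicate 1 it was -0.70, and without Fmr1-KO replicate 2 it was 0.43. Tubb2a (ENSMUSG00000058672.7), its neighbour, had 360.4 and 303.8 CPM in Fmr1-KO libraries, against 336.5 and 268.7 CPM in WT libraries, with overlapping genotypes and a log2 fold change of 0.13 (edgeR interval -0.52 to 0.79). Tubb3 (ENSMUSG00000062380.4, chromosome 8), the neuronal class III beta-tubulin, had 114.6 and 66.75 CPM in Fmr1-KO libraries, against 147.8 and 70.7 CPM in WT libraries. Replicate 1 was again the higher library in each genotype, and the log2 fold change of -0.27 had an interval of -1.33 to 0.79 (edgeR). Tuba1a (ENSMUSG00000072235.5, chromosome 15), the main alpha-tubulin of developing neurons, had 770.3 and 750.5 CPM in Fmr1-KO libraries, against 768.7 and 600.9 CPM in WT libraries. Here 3 libraries lay close together and WT replicate 2 was lower, with a log2 fold change of 0.15 and an interval of -0.48 to 0.78 (edgeR).

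Stmn1 (ENSMUSG00000028832.11, chromosome 4), a stathmin of dividing cells and young neurons, had 264.6 and 160.1 CPM in Fmr1-KO libraries, against 233.8 and 171.5 CPM in WT libraries. Its log2 fold change was 0.07 with an interval of -0.75 to 0.88 (edgeR), and the WT values lay within the Fmr1-KO range. Stmn2 (ENSMUSG00000027500.10, chromosome 3), the stathmin of growth cones, had 84.2 and 79.2 CPM in Fmr1-KO libraries, against 108.8 and 61.8 CPM in WT libraries. The Fmr1-KO values lay within the WT range, and the log2 fold change was -0.06 with an interval of -0.91 to 0.79 (edgeR).

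**Figure D3:**
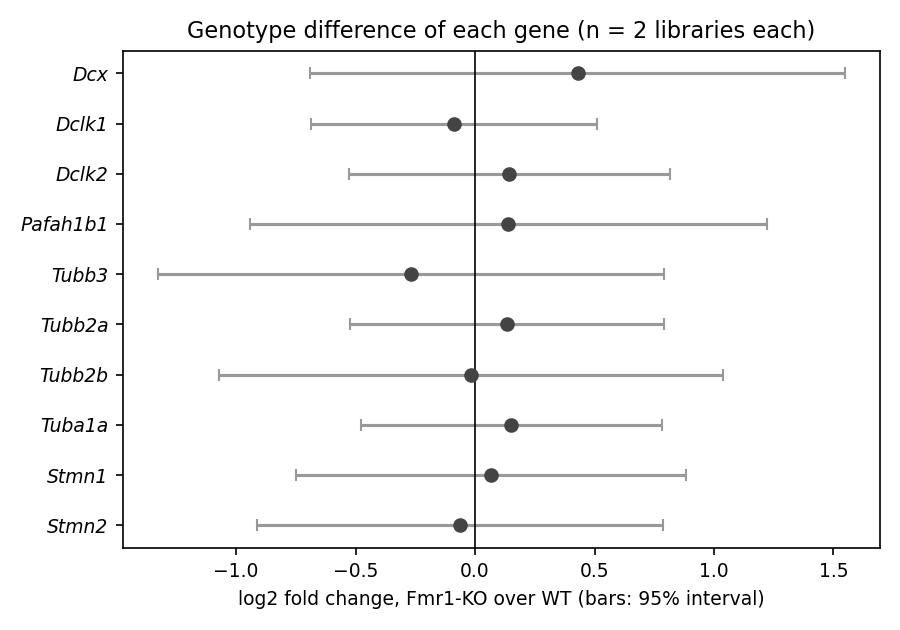
Log2 fold change of each of the 10 genes, Fmr1-KO over WT, with 95% intervals from edgeR's quasi-likelihood fit (n = 2 libraries each). Every interval crosses 0, and the widest are those of Dcx, Pafah1b1, Tubb3 and Tubb2b.

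The libraries of a genotype were then set side by side, replicate 1 over replicate 2, with 1 library a side and no test. Of the 10 genes, 8 were higher in replicate 1 in both genotypes, against 33.5% of all genes and 31.4% of those at or above the lowest mean level of the 10 (83.5 CPM, 2785 genes). Pafah1b1 alone of the 10 was higher in replicate 2 in both, as were 32.4% of all genes. In Fmr1-KO 2 genes were at least 2-fold higher in replicate 1, Dcx with a log2 ratio of 1.11 and Tubb2b with 1.15, against 18.3% of all genes. In the same pair 1 gene, Pafah1b1, was at least 2-fold higher in replicate 2, with a log2 ratio of -1.03, against 16.1%. In WT 1 gene was at least 2-fold higher in replicate 1, Tubb3 with 1.06, against 11.0% of all genes, and 0 were at least 2-fold higher in replicate 2, against 12.8%. Just short of that fold in WT stood Dcx with 0.99 and Pafah1b1 with -0.99, and Stmn2 had 0.81. These counts depend on the scaling: Dcx in WT passed 2-fold with DESeq2 size factors (1.01), upper quartile (1.04) and library-size scaling (1.15) and without mitochondrial genes (1.01). Pafah1b1 in Fmr1-KO fell short with upper quartile (-0.989) and library-size scaling (-0.86). The shares over all genes include many of low count. Among the 2785 genes at or above the lowest of the 10, 4.31% and 9.41% were at least 2-fold higher in replicate 1 and in replicate 2 of Fmr1-KO, and 1.29% and 7.32% in those of WT.

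The sizes differed within each family. Dclk1 had log2 ratios of -0.10 in Fmr1-KO and 0.01 in WT, and Dclk2 had 0.33 and 0.27, so neither shared the spread of Dcx. Tubb2a had 0.25 and 0.32, less than Tubb2b with 1.15 and 0.78 and Tubb3 with 0.78 and 1.06. Tuba1a had 0.04 and 0.36, Stmn1 had 0.72 and 0.45, and Stmn2 had 0.09 and 0.81, each in Fmr1-KO and WT. The lowest count of any of the 10 genes in a library was 412, with a Poisson error of 4.93% that covers counting error alone. Scaled by library size alone, the ratio of Dclk1 in Fmr1-KO turned to 0.07, and the median over all genes moved to 0.18 in Fmr1-KO and 0.16 in WT, against 0.02 and 0.004 with TMM.

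**Figure D4:**
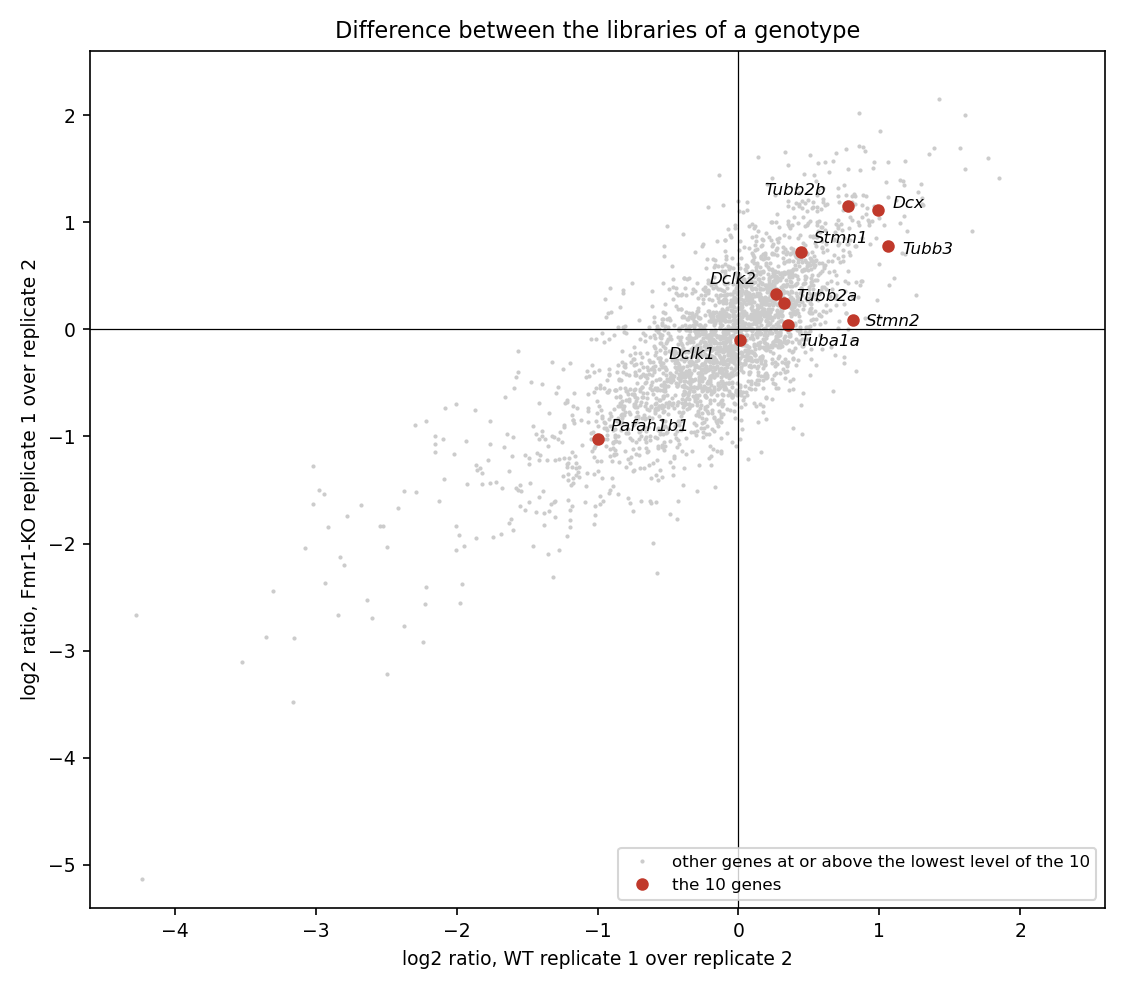
Log2 ratio of replicate 1 to replicate 2 in Fmr1-KO (vertical) and in WT (horizontal), with the 10 genes in red and other genes of at least their lowest mean level in grey. Dcx, Tubb2b and Tubb3 lie to the upper right, Pafah1b1 to the lower left and Dclk1 near the centre, and 2 grey genes lie beyond the frame.

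The marker lists moved between the same libraries. Of 16 tested neuroblast and immature granule neuron markers, 13 were higher in replicate 1 in both genotypes, with median log2 ratios of 0.95 in Fmr1-KO and 0.83 in WT. Of 10 mature granule neuron markers, 9 were higher in replicate 2 in both, with medians of -0.82 and -0.81, and of 12 oligodendrocyte lineage markers 11 were, with medians of -1.42 and -2.32. Dividing progenitor markers had summed levels of 378.8 and 147.9 CPM in Fmr1-KO replicates 1 and 2, and 262.4 and 196.8 CPM in WT replicates 1 and 2. Of these 8 markers, 5 were higher in replicate 1 in both genotypes and 2 in replicate 2 in both. Their median log2 ratios were 1.92 in Fmr1-KO and 0.37 in WT. Radial glia and astrocyte markers summed to 12210 and 8944 CPM in Fmr1-KO replicates 1 and 2. In WT replicates 1 and 2 they summed to 11960 and 10530 CPM. Their sum was the highest of the lists in replicate 1 of both genotypes. Slc1a2 alone stood there at 5853 CPM in Fmr1-KO and 5454 CPM in WT. Sums over lists of unlike genes do not rank cell types. Of the 12 radial glia and astrocyte markers, 8 were higher in replicate 1 in both genotypes and 2 in replicate 2 in both. Their median log2 ratios were 0.54 in Fmr1-KO and 0.23 in WT. Microglia markers summed to 31.2 to 91.4 CPM, and vascular and blood markers to 55.7 to 182.0 CPM, with Hba-a1 at 0 in all libraries. The part of these cells in the ratios of the 10 genes was not tested.

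Of 4632 tested genes with a mean of at least 50 CPM, the 5 whose pattern over the 4 libraries lay nearest to that of Dcx, clone and prediction symbols left out, were Sema3c, Dpysl5, B4galnt4, Ncapd2 and Per1. Likeness was the Euclidean distance between centred log2 CPM values, from 0.084 for Sema3c to 0.235 for Per1. Sema3c, a secreted guidance factor, had 147.6 and 72.6 CPM in Fmr1-KO libraries, against 109.2 and 57.5 CPM in WT libraries. Dpysl5, a collapsin response mediator protein that binds tubulin, had 198.8 and 95.6 CPM in Fmr1-KO libraries, against 157.5 and 69.6 CPM in WT libraries. B4galnt4 had 95.7 and 43.9 CPM in Fmr1-KO libraries, against 72.6 and 39.9 CPM in WT libraries. Ncapd2, a condensin subunit of dividing cells, and the clock gene Per1 had the same order of libraries, with replicate 1 above replicate 2 in each genotype. With 4 libraries, such nearness is a description of these samples.

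Levels can be ordered per kilobase of the deposited gene length. Tuba1a stood first with a mean of 438.8 CPM per kilobase over the 4 libraries (364.9 to 467.7), followed by Tubb2b with 376.8 (232.4 to 516.4), Tubb2a with 197.1 (166.9 to 223.9) and Stmn1 with 108.0 (83.3 to 137.7). Tuba1a and Tubb2b overlapped, while the steps to Tubb2a, to Stmn1 and to Tubb3 separated all libraries of the higher gene from all of the lower. Tubb3 with 53.5, Pafah1b1 with 41.9, Dclk1 with 28.2, Dcx with 23.0, Dclk2 with 17.9 and Stmn2 with 14.9 CPM per kilobase followed, and in this run each gene overlapped the next. The order of the lower genes depends on the length used. Deposited lengths ran from 0.913 times the transcript used above for Tuba1a to 2.63 times for Dclk2 and 2.7 times for Stmn2. Per kilobase of transcript, a setting added after the data were seen, 4 of the 10 genes kept their place, namely Tuba1a, Tubb2b, Tubb2a and Stmn1. Tubb2a with 197.1 and Stmn1 with 195.8 CPM per kilobase then overlapped. Pafah1b1 with 69.5, Dclk1 with 55.1, Tubb3 with 53.5, Dclk2 with 47.0, Stmn2 with 40.3 and Dcx with 32.0 CPM per kilobase of transcript followed, each overlapping the next.

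Within the 8 beta-tubulin genes looked at, Tubb2a, Tubb2b and Tubb3 together made up 65.5% and 55.3% of the summed level per kilobase in Fmr1-KO replicates 1 and 2, and 68.9% and 55.1% in WT replicates 1 and 2. Tubb2b alone had 42.2% and 28.1% in Fmr1-KO, against 43.0% and 31.8% in WT. Tubb4a, a beta-tubulin of oligodendrocytes and mature neurons, had 13.1% and 29.2% in Fmr1-KO, against 10.2% and 29.1% in WT, so its share was the larger in replicate 2 of each genotype. Per kilobase Tubb2b stood at 2.31 and 1.23 times Tubb2a in Fmr1-KO libraries, against 2.29 and 1.67 times in WT libraries.

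Among the 8 alpha-tubulin genes, Tuba1a held 78.3% and 80.0% of the level per kilobase in Fmr1-KO, against 74.5% and 70.5% in WT. Tuba1b, a broadly expressed relative named after its values were seen, held 18.4% and 16.3% in Fmr1-KO, against 21.8% and 24.8% in WT. The genotypes did not overlap in either share. Nor did they in the small share of Tuba4a, at 3.2% and 3.4% in Fmr1-KO against 3.52% and 4.57% in WT. The same held for Tuba1c, at 0.13% and 0.331% in Fmr1-KO against 0.0411% and 0.0563% in WT. These Tuba1c shares rest on 9 and 23 counts in Fmr1-KO and 3 and 4 counts in WT, too few for the gene to be tested. Of the windows of Tuba1a, 594 also occurred in Tuba1c, the most for any gene. The difference in the Tuba1a share was 6.62 percentage points, with a two-sided exact permutation p of 0.333, the smallest that 2 libraries against 2 allow, and 0.667 after Benjamini-Hochberg adjustment over the 4 shares tested (Tuba1a, Tuba1b, Tubb2b and Tubb4a). The shares of Tuba1a and Tuba1b nearly add up to the whole and so are not separate observations. The windows that Tuba1a shares with other genes leave the split uncertain.

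**Figure D5:**
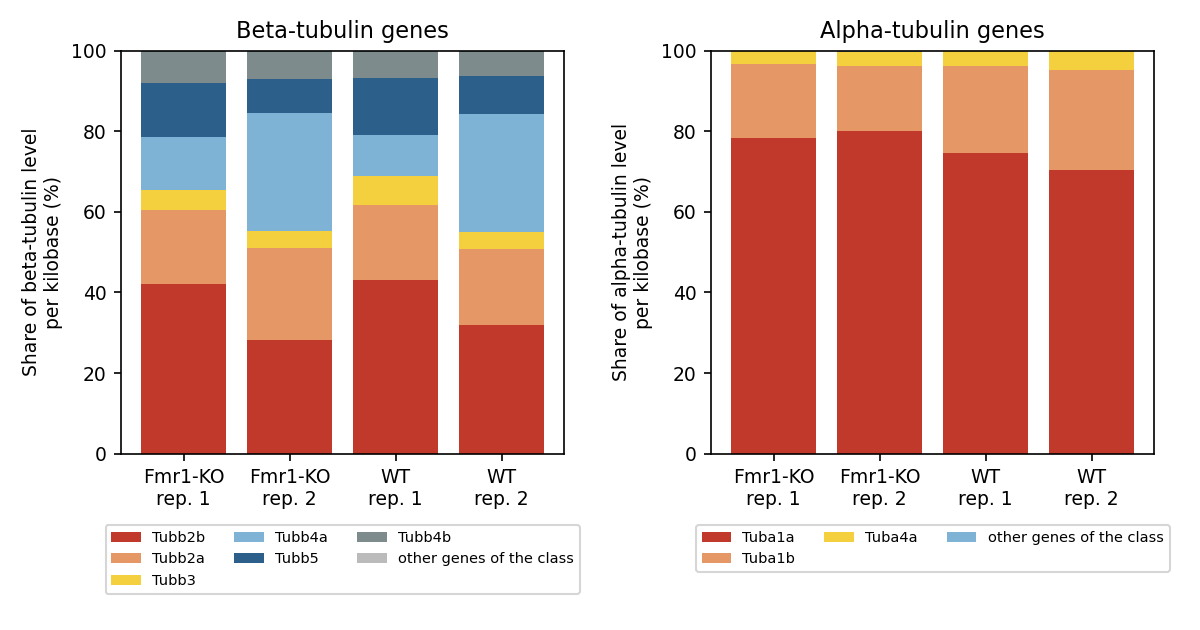
Share (%) of the summed level per kilobase taken by each beta-tubulin gene (left) and alpha-tubulin gene (right) in each library, Fmr1-KO left of WT. In both genotypes Tubb2b takes its larger share in replicate 1 and Tubb4a takes its larger share in replicate 2, and Tuba1a takes 78.3% and 80.0% in Fmr1-KO against 74.5% and 70.5% in WT.

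The wider microtubule machinery was measured in 5 lists, and edgeR called 0 of their tested genes in either direction, with 0 at an unadjusted p under 0.05. Counts of genes whose genotypes did not overlap are to be read against 11.8% of all genes higher and 13.7% lower. The other tubulin genes had 3 of 9 tested estimates above 0 and a median log2 fold change of -0.14 (0.31 without Fmr1-KO replicate 2), and 1 lay higher and 2 lower without overlap. The most abundant were Tubb4a, with 356.1 and 537.6 CPM in Fmr1-KO libraries against 253.1 and 570.1 CPM in WT libraries, and Tubb5, with 550.7 and 231.9 CPM in Fmr1-KO libraries against 524.2 and 280.1 CPM in WT libraries. Both varied with replicate number, in opposite directions.

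Other doublecortin-domain and stathmin genes had 0 of 5 tested estimates above 0, a median of -0.29 and 0 without overlap. That median was 0.089 without Fmr1-KO replicate 1, 0.080 without WT replicate 2, -0.63 without Fmr1-KO replicate 2 and -0.59 without WT replicate 1. Stmn4, a neural stathmin, had 92.4 and 139.7 CPM in Fmr1-KO libraries, against 108.8 and 174.5 CPM in WT libraries. Stmn3, another neural stathmin, had 65.1 and 87.0 CPM in Fmr1-KO libraries, against 96.0 and 67.8 CPM in WT libraries. Partners of LIS1 in the dynein and dynactin complexes had 10 of 27 estimates above 0 and a median of -0.05 (0.067 without Fmr1-KO replicate 1 and 0.019 without WT replicate 2), and 3 lay higher and 6 lower without overlap. Dync1h1, the dynein heavy chain, had 1122 and 1047 CPM in Fmr1-KO libraries, against 1002 and 996.2 CPM in WT libraries, so that the genotypes did not overlap, with a log2 fold change of 0.12 and a standard error of 0.25 (edgeR). Dynll2, a dynein light chain, had 276.4 and 418.8 CPM in Fmr1-KO libraries, against 232.4 and 364.6 CPM in WT libraries.

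Structural and end-binding microtubule-associated proteins included 20 estimates above 0 among 26, and 3 lay higher and 0 lower without overlap, near the share of all genes on the higher side. Their median was 0.17, and 0.078 without Fmr1-KO replicate 2 or without WT replicate 1. Map1b, a protein of growing axons, had 1011 and 1363 CPM in Fmr1-KO libraries, against 1063 and 1474 CPM in WT libraries. Map1a, its relative in mature dendrites, had 562.0 and 1552 CPM in Fmr1-KO libraries, against 596.8 and 1261 CPM in WT libraries. Factors that fold, modify or sever tubulin had 18 of 27 estimates above 0 and a median of 0.11 (0.0097 without WT replicate 2 and 0.22 without WT replicate 1), and 2 lay higher and 3 lower without overlap. Sirt2, a tubulin deacetylase, had 187.7 and 231.7 CPM in Fmr1-KO libraries, against 154.4 and 238.8 CPM in WT libraries. Agtpbp1, which trims glutamates from tubulin tails, had 126.4 and 244.5 CPM in Fmr1-KO libraries, against 169.4 and 207.8 CPM in WT libraries. The median over all genes tested was 0.02.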

How the data were processed

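The libraries were poly(A)-selected, strand-specific and sequenced as read pairs of 100 bases, per the labels' protocols. Reads were aligned to GRCm38 with a Gencode annotation, per the labels' protocols, and STAR 2.5.3a is named in the submitters' processing notes. The counting program, its strand setting and the annotation release were not given in the sources used here. The deposited values are raw counts per gene with a gene length, and how the authors computed that length is not given. Total counts per library ran from 5478224 to 7213759.

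Genes that passed edgeR's filterByExpr (14673 of 52636) were scaled by TMM and tested with the quasi-likelihood F-test on genotype alone (edgeR 4.0.16, limma 3.58.1, R 4.3.3), two-sided, with Benjamini-Hochberg adjustment over all genes tested and a threshold of 0.05. Ratios between replicates used log2 CPM with a prior count of 2. The scripts were tested on simulated data. Alternatives were DESeq2 1.42.0, limma voom, other scalings and filters, a replicate block and leaving out each library. Gene positions and transcripts were from GENCODE M21 (GRCm38), which held 99.56% of the table's genes. Of each context list the 2 genes of highest mean CPM were named. The members and lists were chosen with earlier results of these data known.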

Additional observations from a re-analysis of the deposited data

How the results depend on the processing

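None of the 10 genes was called under any alternative run, and the smallest adjusted p was 0.7879 on leaving out a library and 0.8803 otherwise (edgeR, DESeq2 and limma voom). Leaving out 1 library turned the sign of 13 of 40 estimates, and the lone library of that genotype is then assumed to vary like the other group. The ranges were -0.23 to 1.0 for Dcx, -0.15 to -0.04 for Dclk1, -0.030 to 0.29 for Dclk2, -0.48 to 0.71 for Pafah1b1, -0.72 to 0.35 for Tubb3, -0.033 to 0.30 for Tubb2a, -0.70 to 0.43 for Tubb2b, -0.029 to 0.33 for Tuba1a, -0.34 to 0.37 for Stmn1 and -0.43 to 0.40 for Stmn2. Signs turned without Fmr1-KO replicate 1 for Dcx (-0.23), Dclk2 (-0.030) and Stmn1 (-0.34). They turned without Fmr1-KO replicate 2 for Pafah1b1 (-0.48), Tubb3 (0.055) and Tubb2b (0.43), and without WT replicate 1 for Pafah1b1 (-0.28), Tubb3 (0.35), Tubb2b (0.42) and Stmn2 (0.40). Without WT replicate 2 they turned for Tubb2a (-0.033), Tuba1a (-0.029) and Stmn1 (-0.15). The members' median ran from -0.072 to 0.32. List medians ran from -0.15 to 0.067 for LIS1 partners, -0.24 to 0.31 for other tubulins, -0.63 to 0.089 for other doublecortin-domain and stathmin genes, 0.078 to 0.16 for microtubule-associated proteins and 0.0097 to 0.22 for folding factors. Limma voom put Stmn2 at 0.0066. Other alternatives turned no other estimate of the 10 genes, and the cause of the changes was not tested.

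Same-numbered libraries deviated together over 14673 genes (correlation 0.364), but with 2 numbers this does not establish a pairing. With the replicate number as a block, 7 genes were called higher and 3 lower, none of them among the 10, and Dcx stood at 0.41 with an edgeR p of 0.0265 before adjustment and 0.88 after it. With transcript in place of deposited lengths, chosen after seeing the data, 4 of the 10 genes kept their place in the order per kilobase.

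With library-size scaling, log2 ratios of replicate 1 to replicate 2 in Fmr1-KO were 1.28 for Dcx, 0.070 for Dclk1, 0.50 for Dclk2, -0.86 for Pafah1b1, 0.41 for Tubb2a, 1.32 for Tubb2b, 0.21 for Tuba1a and 0.89 for Stmn1. In WT they were 1.15 for Dcx, 0.17 for Dclk1, 0.43 for Dclk2, -0.83 for Pafah1b1, 0.49 for Tubb2a, 0.94 for Tubb2b, 0.52 for Tuba1a and 0.61 for Stmn1.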
